A study of Mus musculus with 16 samples.

Results

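The genes described here are 36 mouse genes of fatty acid oxidation and of the response to the peroxisome proliferator-activated receptors (PPARs). They were chosen by symbol, matched to the Ensembl gene identifiers of a count table of 33072 genes, and all 36 were found. By role they comprise 4 nuclear receptors, 3 genes of the carnitine shuttle, 4 acyl-CoA dehydrogenases, 5 enzymes of mitochondrial hydration, dehydrogenation and thiolysis, 3 auxiliary enzymes for unsaturated fatty acids, 3 genes of electron transfer to ubiquinone, 4 peroxisomal genes and 10 PPAR targets in fuel choice and lipid handling.

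Fatty acids are activated to acyl-CoA, carried into mitochondria as acylcarnitines and shortened in repeated rounds of β-oxidation, each of which runs through dehydrogenation, hydration, a further dehydrogenation and thiolysis. Very long-chain and branched fatty acids are shortened in peroxisomes. PPARs are nuclear receptors that bind fatty acids and their derivatives, pair with retinoid X receptors on DNA, and control many genes of this pathway in liver, muscle and fat.

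RNA-seq was performed in 2 mouse mammary carcinoma lines that derive from the same spontaneous BALB/c tumor, 4T1, labelled metastatic, and 67NR, labelled non-metastatic. Each line was exposed for 24 h to CIX, an inhibitor of cytosolic phospholipase A2 alpha (cPLA2α, the enzyme that frees arachidonic acid from membrane phospholipids), at 15 µM, or to vehicle, in fresh medium with fetal bovine serum. CIX is itself a synthetic fatty acid derivative. Each of the 4 groups held 4 samples, all 4 groups had the serum medium in common, and 1 dose and 1 time point of a single inhibitor were measured, so that an action of CIX other than on cPLA2α cannot be told apart from inhibition of the enzyme. Sample values are given below in the order of the sample numbers in the labels, which are 3, 7, 11 and 15 for 4T1 vehicle, 4, 8, 12 and 16 for 4T1 CIX, 1, 5, 9 and 13 for 67NR vehicle, and 2, 6, 10 and 14 for 67NR CIX. They are given as CPM, the estimated count scaled to a fixed library total after normalization by the trimmed mean of M-values (TMM), and are compared within a gene. Between genes TPM is used, which also divides by transcript length.

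Totals ran from 21715700 to 29450629 estimated counts per sample, so that 3 counts corresponded to 0.108 to 0.137 CPM. The 36 genes took 0.184 to 0.260% of all counts. Among the libraries, 67NR vehicle sample 13 stood furthest from its group, and calls that changed without it are named. In bulk samples, fewer cells of a type and less RNA per cell cannot be told apart. The epithelial markers summed to 4124 to 5024 CPM in the 4T1 samples and to 1.33 to 7.16 CPM in the 67NR samples, so that 67NR, labelled a mammary carcinoma, lacked nearly all epithelial marker RNA. With CIX the mesenchymal list went from 1082 to 1226 CPM up to 2507 to 2887 CPM in 4T1 and from 4712 to 5644 CPM up to 7607 to 8616 CPM in 67NR, nearly all of it Vim. The 8 macrophage and leukocyte markers went from 53.0 to 90 CPM up to 133 to 199 CPM in 4T1 and from 9.30 to 14.2 CPM up to 36.1 to 41.9 CPM in 67NR, most of it Cd68, while 4 of the 8 held at most 3 counts in every 4T1 sample. The 8 adipocyte markers, which would bring PPAR targets with them, stayed between 35.9 and 55.1 CPM in all 16 samples and consisted almost wholly of Lipe, and the 6 endothelial markers reached at most 10.1 CPM. The part of these markers in the results below was not tested.

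The sequence that PPARs and their partner are known to bind is a direct repeat of a hexamer with a single base between, AGGTCANAGGTCA. It was searched on both strands, with up to 2 mismatches outside the spacer, in the RefSeq promoter windows (GRCm38.p6, 300 bases each, most of them before the annotated start). Windows were at hand for 30 of the 36 genes, 34 windows in all, and 6 of these genes (20%) held such a match against 4.40% of all 27025 genes with a window. With at most 1 mismatch the count was 0 of 30, against 0.644% of all genes. A match describes letters and is no evidence of binding. The matches were AGGTGAAAGGTCG in Slc25a20, AGGTCACGGGTCC in Echs1 and TGGTCATAGGCCA in a second annotated start of Rxra, and, read on the opposite strand, GGACCCCTGACCT in Plin2, TGGCCTCTGACTT in Cd36 and TTACCTTTGCCCT in Etfa. Acadl, Acadvl, Cpt1a and Hadha, described below for their response to CIX, had no match in these windows. The windows of Slc25a20 and Plin2 are shown because these 2 genes had the largest differences in favor of 4T1 among the members tested between the lines, with the match in capitals.
Slc25a20 (chr9:108661886-108662185, plus strand): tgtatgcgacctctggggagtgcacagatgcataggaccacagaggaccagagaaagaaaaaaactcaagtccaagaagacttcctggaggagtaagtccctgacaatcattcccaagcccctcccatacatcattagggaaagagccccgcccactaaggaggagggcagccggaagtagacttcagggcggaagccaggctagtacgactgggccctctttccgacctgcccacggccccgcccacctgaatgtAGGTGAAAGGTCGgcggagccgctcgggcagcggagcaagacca
Plin2 (chr4:86670010-86670309, minus strand): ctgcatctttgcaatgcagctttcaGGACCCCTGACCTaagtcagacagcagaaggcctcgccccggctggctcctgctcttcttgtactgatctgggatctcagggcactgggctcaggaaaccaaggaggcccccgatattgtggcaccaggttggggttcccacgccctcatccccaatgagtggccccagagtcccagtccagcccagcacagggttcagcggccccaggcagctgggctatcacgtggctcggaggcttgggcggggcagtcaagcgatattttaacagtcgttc

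Hadha and Hadhb, which encode both subunits of the mitochondrial trifunctional protein, lie head to head on chromosome 5, with their annotated RefSeq starts 273 bases apart. The window of Hadha is shown because it shares 228 bases, in capitals, with the window of Hadhb on the other strand.
Hadha (chr5:30154931-30155230, minus strand): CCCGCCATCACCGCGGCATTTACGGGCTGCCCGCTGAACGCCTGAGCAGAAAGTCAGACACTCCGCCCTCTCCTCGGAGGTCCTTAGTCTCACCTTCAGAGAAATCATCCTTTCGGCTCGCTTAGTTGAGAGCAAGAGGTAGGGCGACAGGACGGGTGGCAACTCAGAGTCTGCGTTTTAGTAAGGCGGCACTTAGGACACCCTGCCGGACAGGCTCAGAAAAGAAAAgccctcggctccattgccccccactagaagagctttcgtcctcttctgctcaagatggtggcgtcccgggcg

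In 4T1 vehicle, Plin2, the coat protein of lipid droplets, had the highest level of the 36 genes at 587 ± 109.9 TPM (SD, n = 4), followed by the mitochondrial carrier Ucp2 at 253 ± 55.5 TPM and the electron acceptor subunit Etfa at 223 ± 18.7 TPM. In 67NR vehicle the order was Ucp2 at 326 ± 28.5 TPM, Etfb at 173 ± 8.12 TPM and Plin2 at 165 ± 11.2 TPM, of which Etfb and Plin2 differed by less than their SDs. At the other end, 4 genes never exceeded 10 estimated counts in any sample. These were Decr1, the mitochondrial dienoyl-CoA reductase, with at most 1 count, Pdk4, the kinase that shuts off pyruvate dehydrogenase, with at most 2, Ehhadh, the peroxisomal bifunctional enzyme, with at most 5, and Pparg with at most 8.

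**Figure D1:**
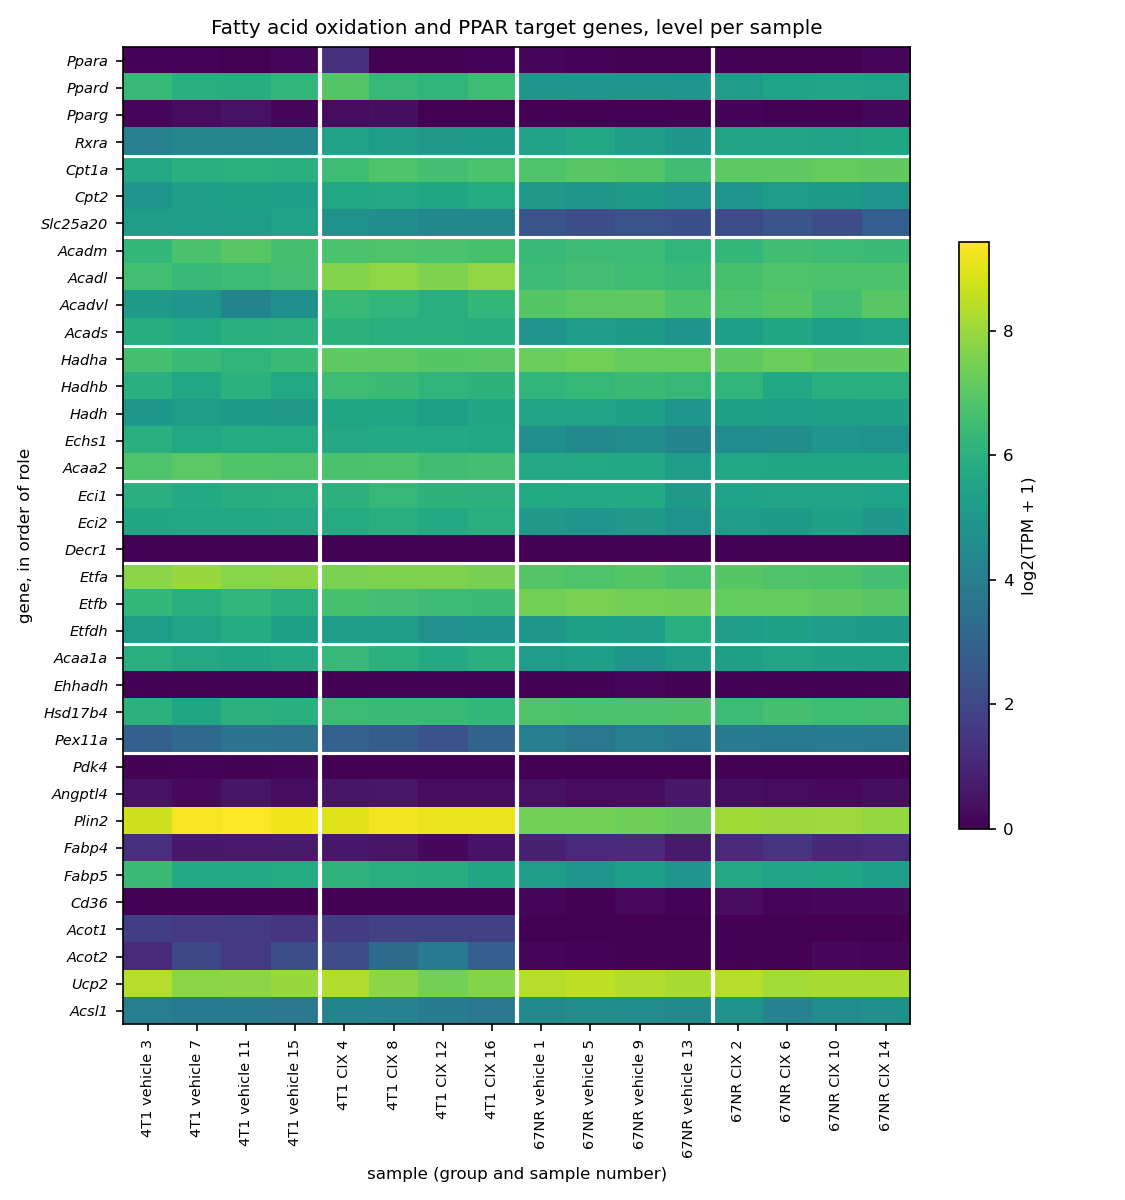
Level of the 36 genes in each of the 16 samples as log2(TPM + 1), with genes in rows in order of role and samples in columns by group; white lines separate groups and roles. Plin2 is brightest in the 4T1 samples (587 TPM in vehicle), whereas Decr1, Pdk4, Ehhadh and Pparg are dark in all 16 samples.

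Genes were tested where TPM reached 1 in all but at most 3 samples, with limma-voom on all genes that passed, and a call required an adjusted p (Benjamini-Hochberg) below 0.001. Unless another fit is named, a call refers to this fit, with the samples of the comparison weighted alike. Of the 36 genes, 29 could be tested in at least 1 comparison, and Ppara, Pparg, Decr1, Ehhadh, Pdk4, Angptl4 and Cd36 in none. In 4T1, 5 of the 28 tested members were called with CIX, all higher, against a background of 9.34% of all 11659 genes tested (5.35% higher and 3.99% lower). On log2(TPM + 1) values, 462 genes were called higher and 549 lower, in place of 624 and 465. The 5 were Rxra, Cpt1a, Acadl, Acadvl and Hadha. The median log2 fold change of the 28 was 0.34, against -0.01 for all genes. No member was called lower, although 2 were lower at an unadjusted p below 0.05 by limma-voom (of all genes 51.2% were past that threshold and 25.3% lower), and Slc25a20 was called lower by DESeq2, with sample quality weights and in a limma-voom fit of all 16 samples. Beside the 5, DESeq2 called Acot2, Cpt2 and Hadh higher, sample quality weights Etfb, and the fit of all 16 samples Cpt2, Hadh, Etfb and Hsd17b4. Over all genes these fits called 26.6%, 21.6% and 23.0%. Of the 5, Hadha was lost by edgeR (8.86% of all genes called), with library size as the only scaling and on log2(TPM + 1) values, and Cpt1a was lost on log2(TPM + 1) values. At an adjusted p below 0.05, 13 members were higher and 1 lower, with 42.7% of all genes past that threshold (21.9% higher). The groups did not overlap for 14 members (13 above and 1 below), against 40.0% of all genes. The exact two-sided permutation test gave 0.0286 for each of the 14, the smallest p that 4 against 4 samples allow. Groups without overlap always reach it, so that this p restates the separation.

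The 4T1 calls changed with the sample left out, as did those over all genes, which fell from 1089 to between 269 and 975. Acadl remained called whichever sample was left out. Without 4T1 vehicle sample 7 or without 4T1 CIX sample 8 it was the only member called. Without vehicle sample 15 or CIX sample 16 the calls were Acadl and Rxra, without vehicle sample 11 or CIX sample 12 they were Acadl, Acadvl and Rxra, and without vehicle sample 3 Cpt1a was lost. Leaving out CIX sample 4 removed Hadha and added Slc25a20. The direction of all 5 was kept in each of these fits.

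In 67NR, limma-voom called none of the 27 tested members with CIX, against 0.389% of all 11560 genes tested (0.182% higher and 0.208% lower). At an unadjusted p below 0.05 there were 9, of which 6 were higher, beside 32.8% of all genes (16.0% higher). edgeR also called 0, and DESeq2 called 2, Plin2 and Ppard, with 9.0% of all genes. Sample quality weights gave Plin2 alone (2.14% of all genes), and the fit of all 16 samples gave 0 (1.31%). The median log2 fold change was 0.01, against -0.01 for all genes. At an adjusted p below 0.05, 5 members were higher (Ppard, Cpt1a, Acadl, Acads and Plin2) and 2 lower (Hadhb and Etfb), where 17.8% of all genes were past that threshold (8.51% higher). The groups did not overlap for 9 members, against 23.4% of all genes.

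The responses of both lines were compared directly by an interaction term over all 16 samples. Of the 29 tested members, 6 had a higher log2 response in 4T1 than in 67NR, against a background of 7.86% of 12605 genes (4.81% higher and 3.05% lower). On log2(TPM + 1) values, 491 genes were called higher and 548 lower, in place of 606 and 385. These were Rxra, Acadl, Acadvl, Hadha, Etfb and Hsd17b4. At an adjusted p below 0.05 there were 11 higher and 3 lower, where 29.4% of all genes were past that threshold (15.1% higher and 14.2% lower). Sample quality weights added Cpt1a, Eci1 and Hadhb, and DESeq2 added Hadhb, where these fits called 15.2% and 15.7% of all genes. Hsd17b4 was lost by edgeR (8.03% of all genes called), with DESeq2 size factors, with library size as the only scaling, without a filter and on log2(TPM + 1) values, and Rxra was lost with library size as the only scaling and on log2(TPM + 1) values. No member was called with a lower response in 4T1 by limma-voom on all samples, where 3 were lower at an unadjusted p below 0.05 (19.7% of all genes were), nor by edgeR or DESeq2. Without 4T1 vehicle sample 3, Plin2 was called with a lower response in 4T1 and Rxra was lost. Acadl, Acadvl and Hadha were past the threshold in each of the 16 fits with a sample left out, which called 652 to 1046 of all genes. The count fell to these 3 without 67NR vehicle sample 1 or 5, without 67NR CIX sample 10 or 14, and without 4T1 samples 7, 8 or 15. Hsd17b4 was called in 2 of the 16 fits, without 4T1 samples 3 and 11, and was the only call lost without 67NR vehicle sample 13. The interaction shares its samples with the comparisons within each line, so that its calls are no separate evidence.

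Between the lines without CIX, 15 of the 26 tested members were called, 8 higher and 7 lower in 4T1, against a background of 40.0% of 11040 genes (20.4% higher and 19.6% lower). At an adjusted p below 0.05 there were 10 higher and 11 lower, where 33.3% of all genes were higher and 34.1% lower (67.4% in all). edgeR called the same 15, with 38.9% of all genes. DESeq2 also called Fabp5, Hadhb and Pex11a, the fit of all 16 samples Fabp5, and sample quality weights Hadhb and Ucp2, and over all genes these fits called 52.0%, 46.4% and 48.9%. Without a filter, where 6461 of all genes were called in place of 4420, Eci2 was lost. Acot1, Acot2, Cd36 and Ehhadh, not tested otherwise, were then called. Of these, Ehhadh held 0 counts in 4T1 vehicle and 11 over the 67NR vehicle group, and Cd36 0 and 19, so that both calls rest on few counts. The groups did not overlap for 19 members, where 61.6% of all genes did not. The median difference over the 26 was 0.06 on the log2 scale, with values from -2.34 to 3.16. The vehicle samples enter the CIX comparisons too, and the values of each gene are therefore given side by side.

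**Figure D2:**
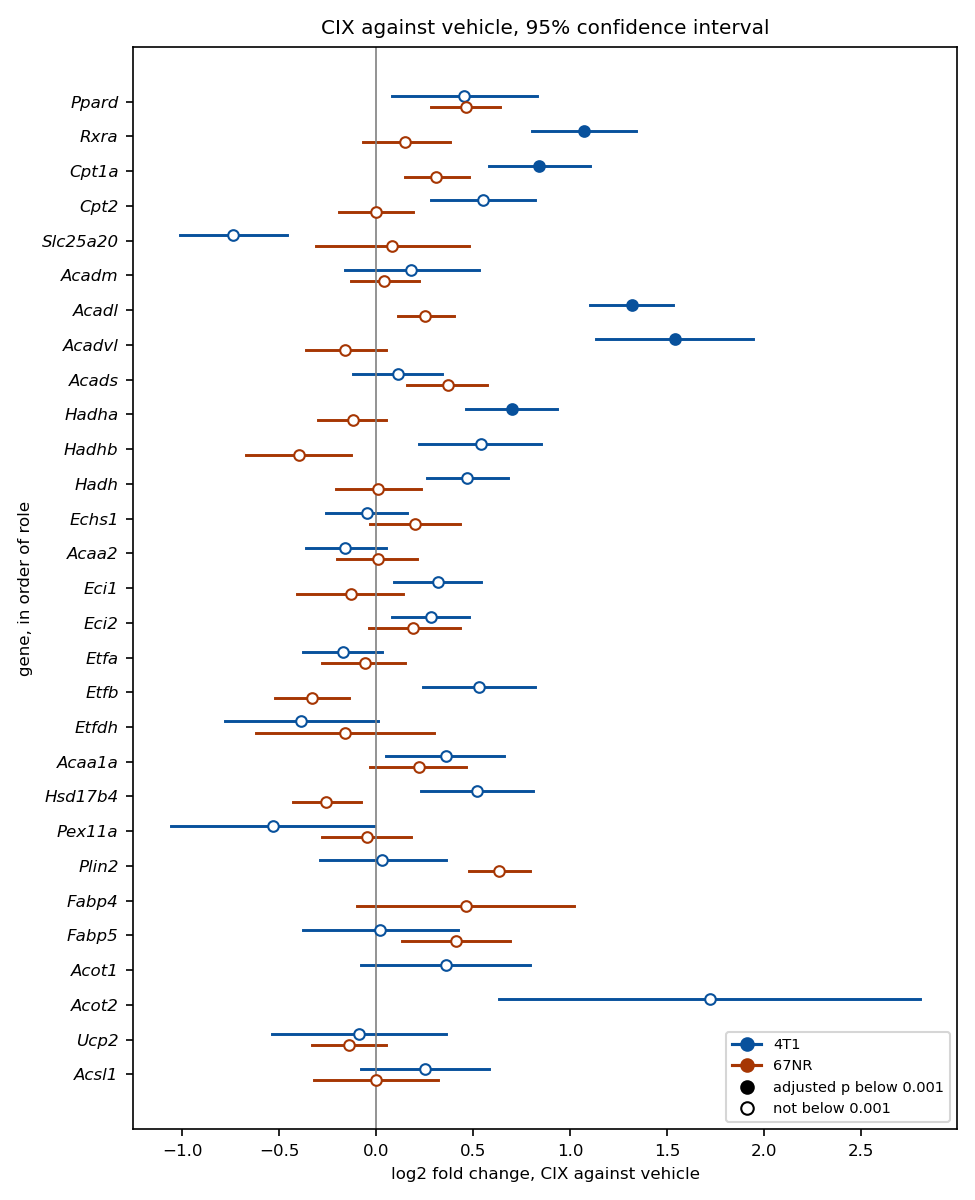
Log2 fold change of CIX against vehicle with 95% confidence intervals from limma-voom for the members tested in 4T1 (blue) or 67NR (brown), in order of role; filled points have an adjusted p below 0.001. Filled points occur in 4T1 at Rxra, Cpt1a, Acadl, Acadvl and Hadha, and none occurs in 67NR.

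Gene positions below are those of GENCODE vM21 on GRCm38. Among the nuclear receptors, Ppard (chromosome 17, 28232700 to 28301474, plus strand) was the PPAR with appreciable expression in both lines. It read 102, 77.4, 76.8 and 88.3 CPM in the 4T1 vehicle samples and 159, 103, 98.7 and 122 CPM in the 4T1 CIX samples. It read 40.3, 40.2, 38.2 and 43.2 CPM in the 67NR vehicle samples and 51.8, 59.5, 58.5 and 56.3 CPM in the 67NR CIX samples. The vehicle samples of 4T1 were all above those of 67NR, by 2.10-fold (log2 fold change 1.07, SE 0.12, limma-voom adjusted p = 3.7e-05). With CIX it was 1.37-fold higher in 4T1, where the groups overlapped (adjusted p = 0.0523), and 1.38-fold higher in 67NR, where all CIX samples lay above all vehicle samples (adjusted p = 0.00594). These 2 responses differed by -0.01 on the log2 scale (95% confidence interval -0.42 to 0.40).

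Rxra (chromosome 2, 27676440 to 27762957, plus strand) encodes the retinoid X receptor with which PPARs pair. It read 27, 31.3, 32.7 and 32.7 CPM in the 4T1 vehicle samples and 75.9, 66.6, 60.2 and 60.4 CPM in the 4T1 CIX samples. In 67NR it read 75.6, 83.8, 66 and 59.3 CPM in the 67NR vehicle samples and 83.6, 79.7, 74.4 and 80.6 CPM in the 67NR CIX samples. All 4T1 CIX samples were above all 4T1 vehicle samples and reached into the range of 67NR vehicle, and the 67NR groups overlapped. CIX was accompanied by a 2.10-fold rise in 4T1 (log2 fold change 1.07, SE 0.12, limma-voom adjusted p = 0.000204) and by a 1.11-fold difference in 67NR (adjusted p = 0.316). The responses differed by 0.91 (SE 0.16, adjusted p = 0.000536). Without CIX, 4T1 was 2.31-fold lower than 67NR (adjusted p = 1.97e-05).

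Ppara, the PPAR that governs fatty acid oxidation in liver, was close to absent. It read 0.0826, 0.0876, 0 and 0.124 CPM in the 4T1 vehicle samples and 1.7, 0.043, 0.0717 and 0.0807 CPM in the 4T1 CIX samples. It read 0.0794, 0.0893, 0 and 0 CPM in the 67NR vehicle samples and 0.0387, 0, 0.0457 and 0.0874 CPM in the 67NR CIX samples. All but a single library were at or below 3 counts, and 4T1 CIX sample 4 held 42 counts. Pparg, the PPAR of fat cells, read 0.0826, 0.219, 0.345 and 0.124 CPM in the 4T1 vehicle samples and 0.203, 0.301, 0 and 0 CPM in the 4T1 CIX samples. It read 0, 0.0446, 0 and 0.0427 CPM in the 67NR vehicle samples and 0.0773, 0, 0 and 0.0874 CPM in the 67NR CIX samples. Its counts were 0 to 8 per library, and neither gene passed the filter for a test.

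In the carnitine shuttle the 3 members had values in different directions. Cpt1a (chromosome 19, 3322334 to 3385733, plus strand), which forms acylcarnitine at the outer membrane and is the main control point of entry, read 56.3, 69, 74.3 and 66.5 CPM in the 4T1 vehicle samples and 105, 134, 116 and 127 CPM in the 4T1 CIX samples. Its 67NR values were 131, 145, 136 and 114 CPM in the 67NR vehicle samples and 168, 163, 169.9 and 159.6 CPM in the 67NR CIX samples. In each line all CIX samples were above all vehicle samples, and the 4T1 vehicle samples were below every other sample. The rise in 4T1 was 1.79-fold (log2 fold change 0.84, SE 0.12, limma-voom adjusted p = 0.000593), and the value in 67NR was 1.24-fold (adjusted p = 0.0197). The difference between responses was 0.52 (adjusted p = 0.0104), and 4T1 vehicle was 2.00-fold lower than 67NR vehicle (adjusted p = 2.32e-05).

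Slc25a20 (chromosome 9, 108662088 to 108684641, plus strand), the carrier that moves acylcarnitine across the inner membrane, had the largest difference between lines among the tested members. It read 51.1, 51.3, 53.3 and 54.5 CPM in the 4T1 vehicle samples and 39.1, 32.8, 28.2 and 28.7 CPM in the 4T1 CIX samples. In the other line the values were 6.32, 5.13, 5.96 and 5.85 CPM in the 67NR vehicle samples and 5.34, 6.67, 5.08 and 8.43 CPM in the 67NR CIX samples. Every 4T1 sample was above every 67NR sample, and within 4T1 all CIX samples were below all vehicle samples. Without CIX it was 8.95-fold higher in 4T1 (log2 fold change 3.16, SE 0.11, limma-voom adjusted p = 8.74e-08). With CIX it was 1.67-fold lower in 4T1, which missed the threshold (log2 fold change -0.74, SE 0.12, adjusted p = 0.00139) and passed it by DESeq2 (adjusted p = 1.18e-06), with sample quality weights (-0.76, adjusted p = 0.000147) and in the fit of all 16 samples (-0.73, adjusted p = 6.2e-05), and the 67NR value was 0.08 (SE 0.17). Cpt2, which returns the acyl group to CoA inside mitochondria, ran from 22 to 30.4 CPM in 4T1 vehicle and from 37.8 to 43.1 CPM in 4T1 CIX. It was 1.46-fold higher with CIX in 4T1 with groups apart (adjusted p = 0.00543), whereas in 67NR its groups overlapped between 23.2 and 27.7 CPM.

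The acyl-CoA dehydrogenases open each round of β-oxidation and divide the work by chain length. Acadl (chromosome 1, 66830839 to 66863277, minus strand), for long chains, read 91.8, 76.2, 88.4 and 89.9 CPM in the 4T1 vehicle samples and 208, 226, 204 and 236 CPM in the 4T1 CIX samples. In 67NR it read 90, 98.6, 90.3 and 89.1 CPM in the 67NR vehicle samples and 109.9, 119, 108 and 107 CPM in the 67NR CIX samples. The 4T1 CIX samples were above all other samples, and the vehicle groups of both lines overlapped. The rise in 4T1 was 2.49-fold (log2 fold change 1.32, SE 0.10, limma-voom adjusted p = 4.45e-05), a call that held without each of the 8 samples, and the 67NR value was 1.19-fold (adjusted p = 0.0293). The responses differed by 1.06 (SE 0.11, adjusted p = 8.23e-06). Without CIX the lines differed by -0.10 on the log2 scale (95% confidence interval -0.29 to 0.09).

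Acadvl (chromosome 11, 70010183 to 70015411, minus strand), for very long chains, read 27.6, 25.3, 15.8 and 20.5 CPM in the 4T1 vehicle samples and 72.8, 64.8, 53.6 and 67 CPM in the 4T1 CIX samples. Its 67NR values were 108, 114, 118 and 99.1 CPM in the 67NR vehicle samples and 100.2, 106, 83.9 and 110.0 CPM in the 67NR CIX samples. Its 4T1 vehicle samples were lowest, its 4T1 CIX samples lay between, and all 67NR samples were above both. The rise with CIX was 2.90-fold in 4T1 (log2 fold change 1.54, SE 0.18, limma-voom adjusted p = 0.000261), against 0.897-fold in 67NR (adjusted p = 0.266). The difference between responses was 1.69 (SE 0.20, adjusted p = 2.91e-05), the largest among the 6 members called. Without CIX, 4T1 was 5.05-fold lower than 67NR (adjusted p = 1.88e-06), and its mean level was 26.6 TPM against 123 TPM.

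Acads, for short chains, read 55.3, 51.3, 60.9 and 59.2 CPM in the 4T1 vehicle samples and 68.9, 59.7, 61.9 and 57.7 CPM in the 4T1 CIX samples. In the other line the values were 29.4, 35.8, 34.2 and 30.3 CPM in the 67NR vehicle samples and 41.6, 46.6, 38.5 and 42.2 CPM in the 67NR CIX samples. Each 4T1 sample was above each 67NR sample. Without CIX it was 1.74-fold higher in 4T1 (log2 fold change 0.80, limma-voom adjusted p = 7.34e-05), and the CIX values were 1.08-fold in 4T1 (adjusted p = 0.396) and 1.29-fold in 67NR (adjusted p = 0.0248). Acadm, for medium chains, was called in no comparison, with values from 44.8 to 77.6 CPM in 4T1 and from 48.9 to 59.6 CPM in 67NR.

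**Figure D3:**
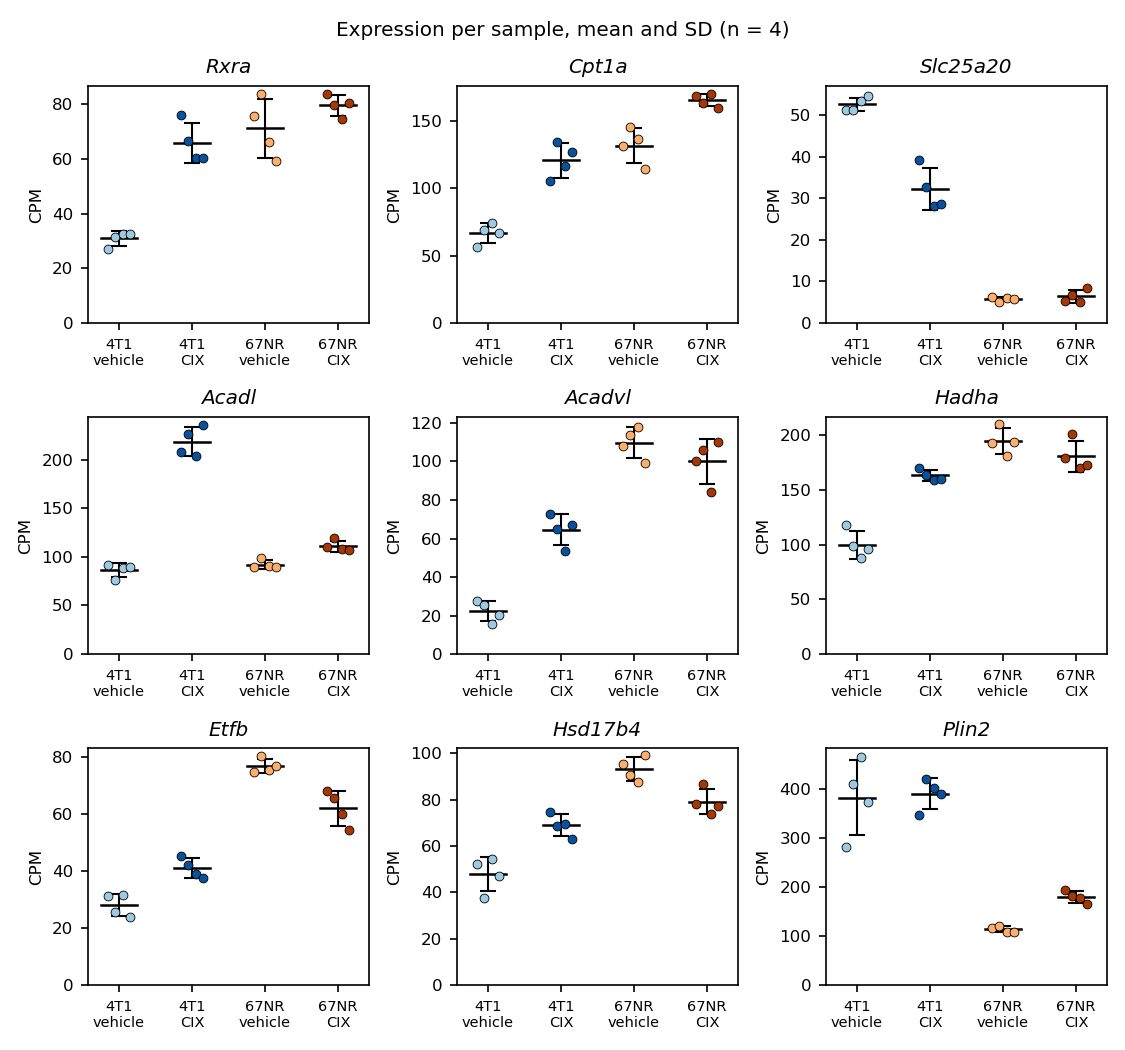
CPM of 9 members in each sample, by line and treatment; points are samples, horizontal lines means and bars SDs (n = 4), and each panel starts at 0. The 4T1 CIX samples of Acadl (204 to 236 CPM) lie above all others, and those of Acadvl (53.6 to 72.8 CPM) lie between 4T1 vehicle and 67NR.

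The next steps of the cycle were likewise mixed. Hadha (chromosome 5, 30118304 to 30155162, minus strand), the subunit of the trifunctional protein that hydrates and dehydrogenates long chains, read 118, 98.3, 87.6 and 96.2 CPM in the 4T1 vehicle samples and 170.3, 164, 159 and 159.9 CPM in the 4T1 CIX samples. In 67NR it read 193, 210.5, 181 and 194 CPM in the 67NR vehicle samples and 179, 201, 170.1 and 173 CPM in the 67NR CIX samples. The 4T1 vehicle samples were below all others, and with CIX they stayed below 67NR vehicle. The rise in 4T1 was 1.62-fold (log2 fold change 0.70, SE 0.10, limma-voom adjusted p = 0.000851), the 67NR value was 0.918-fold (adjusted p = 0.304), and the responses differed by 0.82 (SE 0.12, adjusted p = 0.000166). Without CIX, 4T1 was 1.97-fold lower (adjusted p = 3.48e-05). Hadhb, the thiolase subunit encoded on the opposite strand next to it, had values in the same direction without a call by limma-voom with all samples weighted alike. Its values ran from 53.9 to 74.2 CPM in 4T1 vehicle, 79.8 to 106 CPM in 4T1 CIX, 86.1 to 97.4 CPM in 67NR vehicle and 58.4 to 88.6 CPM in 67NR CIX. It was 1.45-fold higher with CIX in 4T1 (adjusted p = 0.0137) and 0.758-fold in 67NR (adjusted p = 0.0499), and the responses differed by 0.93 (adjusted p = 0.00163). DESeq2 called it for the difference of responses (0.92, adjusted p = 8.79e-05) and between the lines (-0.55, adjusted p = 1.07e-04). Both were called with sample quality weights, and the former without 67NR CIX sample 2 (1.02, adjusted p = 0.000755). A share of 23.3% of its 31-base words also occurs in other genes, mostly in Gm13910, which read at most 0.834 CPM.

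Echs1, the short-chain hydratase, read 120.4, 99.8, 115 and 102 CPM in the 4T1 vehicle samples and 104, 108, 112 and 102 CPM in the 4T1 CIX samples. Its 67NR values were 52.4, 44.6, 49.3 and 39.4 CPM in the 67NR vehicle samples and 50.1, 50.7, 61.5 and 54.4 CPM in the 67NR CIX samples. The 4T1 samples were all above the 67NR samples, and the CIX and vehicle groups overlapped in both lines. Without CIX it was 2.33-fold higher in 4T1 (log2 fold change 1.22, limma-voom adjusted p = 8.31e-06). Acaa2, the thiolase that ends the round, read 85.8, 96.2, 91.2 and 83.3 CPM in the 4T1 vehicle samples and 83.8, 85.3, 75.4 and 79 CPM in the 4T1 CIX samples. In the other line the values were 40.2, 40.9, 39.3 and 31.3 CPM in the 67NR vehicle samples and 42, 38.2, 36.5 and 36.9 CPM in the 67NR CIX samples. It likewise separated the lines and was 2.34-fold higher in 4T1 (log2 fold change 1.23, adjusted p = 4.27e-06), with CIX values of 0.897-fold in 4T1 and 1.00-fold in 67NR, neither called. Hadh, the dehydrogenase for shorter chains, ran from 66.0 to 76.1 CPM in 4T1 vehicle, from 91.5 to 102 CPM in 4T1 CIX and from 69.3 to 97.0 CPM in 67NR. It was 1.39-fold higher with CIX in 4T1 with groups apart (adjusted p = 0.00329).

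Unsaturated fatty acids need isomerases and a reductase in addition. Eci2, an enoyl-CoA isomerase of peroxisomes and mitochondria, ran from 39.3 to 43.6 CPM in 4T1 vehicle, from 48.6 to 53.7 CPM in 4T1 CIX, from 25.1 to 30 CPM in 67NR vehicle and from 27.7 to 35.8 CPM in 67NR CIX. It was 1.48-fold higher in 4T1 without CIX (limma-voom adjusted p = 0.000277), a call that was lost without 67NR vehicle sample 5 or 9 or without 4T1 vehicle sample 7 or 15. The mitochondrial isomerase Eci1 ran from 33.5 to 39.7 CPM in 4T1 vehicle, from 44.3 to 50.2 CPM in 4T1 CIX and from 23.6 to 35.6 CPM in 67NR. It was 1.25-fold higher with CIX in 4T1 (adjusted p = 0.0296) and differed by 0.20 on the log2 scale between the lines (adjusted p = 0.218).

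Decr1 (chromosome 4, 15917240 to 15945507, minus strand), the third auxiliary enzyme, was read in 5 of the 16 samples, with 1 count each. Of the genes next to it, Nbn (20.7 to 27.9 CPM as group means), Osgin2 (6.38 to 10.6 CPM) and Ripk2 (21.0 to 23.8 CPM) on 1 side were present in all groups, and Calb1 on the other side held at most 2 counts. Only 0.10% of the 31-base words of Decr1 occur in any other gene.

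In electron transfer to ubiquinone, both subunits of the flavoprotein that takes electrons from the dehydrogenases differed between the lines in opposite directions. Etfa read 133, 155, 136 and 129 CPM in the 4T1 vehicle samples and 120.1, 126, 129 and 119 CPM in the 4T1 CIX samples. In 67NR it read 77.8, 73.8, 77.2 and 71.5 CPM in the 67NR vehicle samples and 83.2, 76.4, 70.8 and 61.8 CPM in the 67NR CIX samples. All 4T1 samples exceeded all 67NR samples, and without CIX the difference was 1.82-fold (log2 fold change 0.87, limma-voom adjusted p = 1.12e-05). Etfb read 31.3, 25.6, 31.8 and 24 CPM in the 4T1 vehicle samples and 45.5, 42.2, 39.1 and 37.6 CPM in the 4T1 CIX samples. Its 67NR values were 74.8, 80.5, 75.7 and 76.9 CPM in the 67NR vehicle samples and 68.2, 65.6, 60.0 and 54.5 CPM in the 67NR CIX samples. Here all 4T1 samples were below all 67NR samples, and the CIX samples lay above vehicle in 4T1 and below vehicle in 67NR. Without CIX it was 2.77-fold lower in 4T1 (log2 fold change -1.47, adjusted p = 3.08e-06). The CIX values were 1.45-fold in 4T1 (adjusted p = 0.00893) and 0.795-fold in 67NR (adjusted p = 0.0278), neither past the threshold, although that in 4T1 passed it with sample quality weights (0.61, adjusted p = 0.000958) and in the fit of all 16 samples (0.54, adjusted p = 0.000681). The responses differed by 0.86 (SE 0.14, adjusted p = 0.000423). Of the 31-base words of Etfb, 49.9% occur in other genes, mostly in Gm45233, which read at most 0.262 CPM, and whether its reads were split was not tested. Etfdh, which passes the electrons on to ubiquinone, was called in no comparison, with 38.9 to 80.4 CPM in 4T1 and 46.1 to 90.9 CPM in 67NR.

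Of the peroxisomal members, Hsd17b4, the multifunctional enzyme of branched and very long chains, read 52.4, 37.8, 54.6 and 47 CPM in the 4T1 vehicle samples and 74.7, 68.8, 69.4 and 63 CPM in the 4T1 CIX samples. In the other line the values were 95.5, 90.6, 87.7 and 99.3 CPM in the 67NR vehicle samples and 78.4, 86.7, 73.9 and 77.4 CPM in the 67NR CIX samples. The CIX samples were above vehicle in 4T1 and below vehicle in 67NR, without overlap in either. Neither difference was called (1.43-fold, limma-voom adjusted p = 0.0104 and 0.837-fold, adjusted p = 0.0519), although the fit of all 16 samples called that in 4T1 (0.53, adjusted p = 0.000658), and the responses differed by 0.77 (SE 0.14, adjusted p = 0.000905). Without CIX it was 1.97-fold lower in 4T1 (adjusted p = 8.84e-05). Acaa1a, the peroxisomal thiolase, and Pex11a, a membrane protein of peroxisome division, were not called by limma-voom. Acaa1a ran from 43.4 to 75.1 CPM in 4T1 and from 27.8 to 42.6 CPM in 67NR, and Pex11a from 4.3 to 11.0 CPM in 4T1 and from 12.5 to 15.5 CPM in 67NR. Their differences between the lines were 0.47 (adjusted p = 0.00879) and -0.76 (adjusted p = 0.00383) on the log2 scale, and DESeq2 called that of Pex11a (-0.73, adjusted p = 5.15e-04). Ehhadh held 0 counts in all 4 4T1 vehicle samples and 2 to 5 counts in each 67NR vehicle sample. The 67NR vehicle group was 3.60-fold above a floor of 3 counts over the 4T1 group, with no allowance for its own counting error.

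Of the 10 PPAR targets in fuel choice and lipid handling, 6 were tested with CIX in 4T1 and 5 in 67NR, and none of these was called, whereas DESeq2 called Acot2 in 4T1 and Plin2 in 67NR, and limma-voom with sample quality weights called Plin2 in 67NR. Plin2 (chromosome 4, 86648386 to 86670060, minus strand) read 281, 410.0, 465 and 372 CPM in the 4T1 vehicle samples and 346, 420.3, 402 and 389 CPM in the 4T1 CIX samples. In 67NR it read 117, 120.0, 109 and 109 CPM in the 67NR vehicle samples and 193, 180.5, 178 and 165 CPM in the 67NR CIX samples. The 4T1 samples were all above the 67NR samples, the 4T1 groups overlapped, and in 67NR all CIX samples were above all vehicle samples. Without CIX it was 3.28-fold higher in 4T1 (log2 fold change 1.71, SE 0.14, limma-voom adjusted p = 5.76e-06). With CIX it was 1.02-fold in 4T1 (adjusted p = 0.874) and 1.55-fold in 67NR, just short of the threshold (log2 fold change 0.63, SE 0.07, adjusted p = 0.00125). The difference of these responses, -0.60, was not called on all samples (adjusted p = 0.0161) and was called without 4T1 vehicle sample 3 (-0.74, adjusted p = 0.000438).

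Acsl1, which activates long-chain fatty acids, read 20.2, 18.4, 18.4 and 15.3 CPM in the 4T1 vehicle samples and 24.9, 23.4, 21.2 and 17.8 CPM in the 4T1 CIX samples. Its 67NR values were 30.1, 33.1, 31.6 and 32 CPM in the 67NR vehicle samples and 40.1, 24.3, 31.6 and 34.9 CPM in the 67NR CIX samples. Its vehicle groups did not overlap, and the CIX groups overlapped with vehicle in each line. It was 1.77-fold lower in 4T1 without CIX (log2 fold change -0.83, limma-voom adjusted p = 0.000109). Ucp2 was not called with all samples weighted alike, with 160.3 to 291 CPM in 4T1 and 256 to 324 CPM in 67NR. Its difference between the vehicle groups, -0.48 on the log2 scale (limma-voom adjusted p = 0.013), was called with sample quality weights (-0.60, adjusted p = 0.000387) and without 4T1 vehicle sample 3 (-0.63, adjusted p = 0.000165). Fabp5, a fatty acid-binding protein, ran from 80.1 to 135 CPM in 4T1 and from 48.7 to 89.7 CPM in 67NR. It was 1.68-fold higher in 4T1 vehicle, which was not called (adjusted p = 0.00395) except by DESeq2 (adjusted p = 9.81e-05) and in the fit of all 16 samples (0.77, adjusted p = 0.000605). A related sequence, Gm6166, with which it shares 7.24% of its words, read 29.4 to 92.5 CPM.

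The thioesterases Acot1 and Acot2, neighbors on chromosome 12 that cut acyl-CoA to free fatty acid, were read almost only in 4T1. Acot1 was at 1.98 to 2.77 CPM in 4T1 vehicle and 2.71 to 3.33 CPM in 4T1 CIX and had 0 counts in all 8 67NR samples. The 4T1 groups were 77.4-fold in vehicle and 98.9-fold in CIX above a floor of 3 counts over the 67NR group. Acot2 read 1.98, 5.26, 3.41 and 6.09 CPM in the 4T1 vehicle samples and 6.56, 15.6, 24.1 and 10.5 CPM in the 4T1 CIX samples. In 67NR it was at most 0.274 CPM. All 4T1 CIX samples were above all vehicle samples, by 3.29-fold, with a wide spread (log2 fold change 1.72, SE 0.48, limma-voom adjusted p = 0.018, and 1.93e-04 by DESeq2). The genes share sequence, with 29.9% of the words of Acot2 found in Acot1, and their sum was 6.60 ± 1.53 CPM in vehicle and 17.3 ± 7.81 CPM in CIX in 4T1 (SD, n = 4).

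Cd36, the fatty acid transporter, was at a very low level, with 0 counts in all 8 4T1 samples and 1 to 11 counts in each 67NR sample. Over the group, 67NR was 6.22-fold in vehicle and 9.88-fold in CIX above a floor of 3 counts for 4T1. These values make no allowance for the counting error of the 67NR counts. Fabp4, the binding protein of fat cells, ran from 0.359 to 2.77 CPM in 4T1 and from 1.28 to 3.52 CPM in 67NR. Its responses to CIX differed by -1.45 (SE 0.52, limma-voom adjusted p = 0.0455). This value is weak, because Fabp4 passed the filter in 67NR and not in 4T1. It held 23 to 67 counts in 4T1 vehicle and 10 to 26 in 4T1 CIX, and the 67 were those of sample 3 alone. Angptl4, a secreted inhibitor of lipoprotein lipase and a known PPAR target in many tissues, stayed between 0.219 and 0.683 CPM in all 16 samples. Pdk4, another such target, had 1 or 2 counts in each 4T1 vehicle sample and 0 in each 4T1 CIX sample, and at most 1 count in any 67NR sample.

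**Figure D4:**
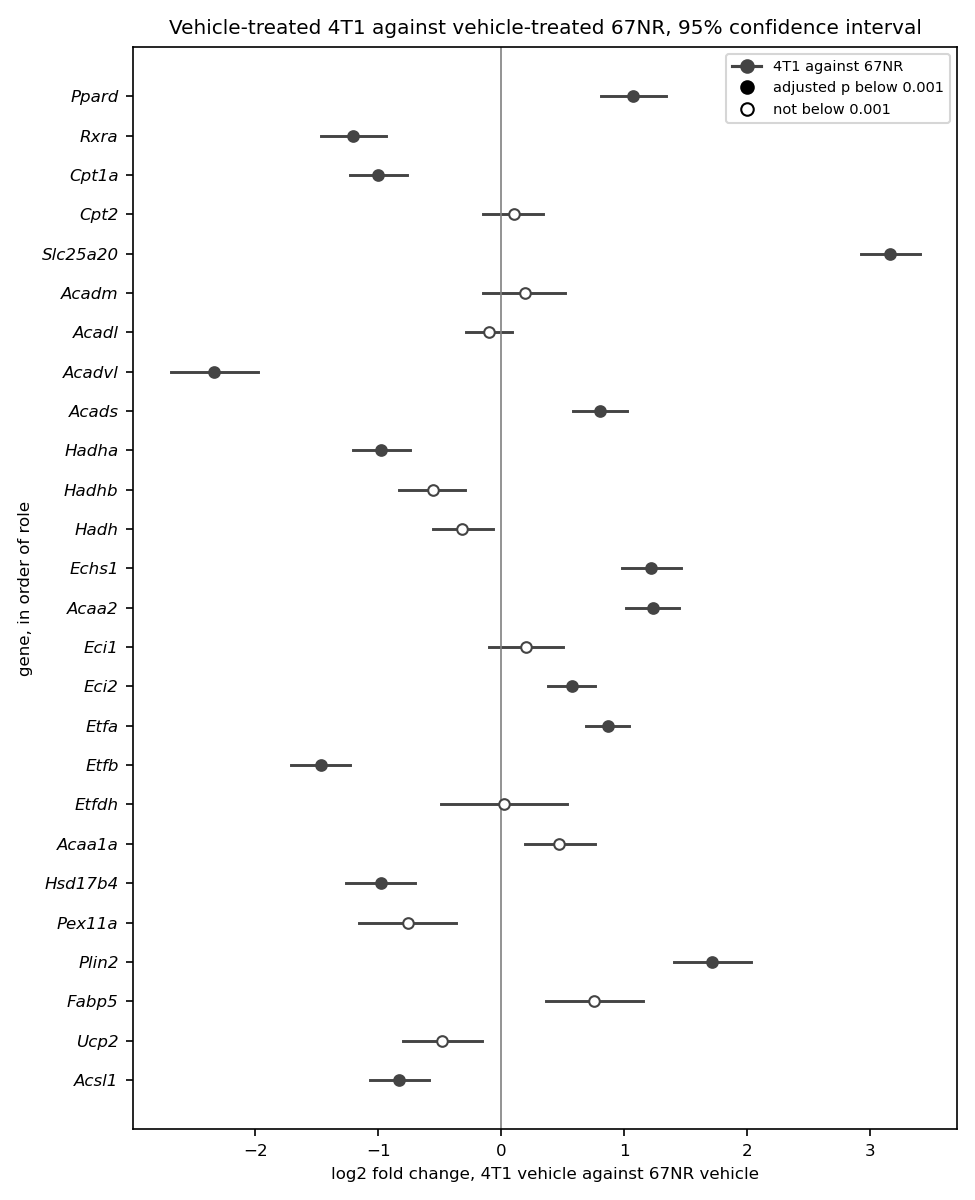
Log2 fold change of 4T1 vehicle against 67NR vehicle with 95% confidence intervals from limma-voom for the 26 members tested, in order of role; filled points have an adjusted p below 0.001. Slc25a20 (3.16) lies furthest to the right and Acadvl (-2.34) furthest to the left.

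Further genes of the pathway were counted over 82 listed genes. In 4T1, 5 of the 54 tested were called with CIX, 4 higher and 1 lower. Among these calls, the coactivators of nuclear receptors Ncoa1 (log2 fold change 1.78, limma-voom adjusted p = 0.000254) and Ncoa3 (1.5, adjusted p = 0.000623) rose furthest, and Amacr, the racemase for branched acyl-CoA, fell by 1.47 (adjusted p = 0.000257). The other calls were Ech1, a peroxisomal dienoyl-CoA isomerase, and Slc27a4, a fatty acid transport protein. Of the 8 fits with a sample left out, Ech1 was called in 8, Ncoa1 in 6 (lost without samples 7 and 8), Amacr in 5 (lost without samples 7, 12 and 16), Slc27a4 in 2 (without samples 4 and 15) and Ncoa3 in 1 (without sample 4). By list, 2 of 13 tested coregulators rose, 1 of 14 other peroxisomal genes rose and 1 fell, 1 of 6 other PPAR targets rose, and none of 6 other carnitine genes, 8 other acyl-CoA dehydrogenases and 7 genes of ketone and propionyl-CoA handling was called. By edgeR the same 5 genes were called, and by DESeq2 there were 12, beside 26.6% of all genes, with Acad8 and Gcdh of the dehydrogenases, Oxct1 of ketone handling, Pecr, Phyh, Nrip1 and Ppargc1b added. In 67NR none of 56 was called, where 0.389% of all genes were, and 7 (12.5%) had an adjusted p below 0.05, beside 17.8% of all genes. At an unadjusted p below 0.05 there were 14, beside 32.8% of all genes, edgeR also called 0, and DESeq2 called 3 (Ech1, Lpin1 and Plin3), beside 9.0% of all genes. The response differed between lines for 8 of 57, highest in 4T1 for Ncoa1 (1.49) and Slc27a4 (1.38) and lowest for Amacr (-1.22) and the corepressor Nrip1 (-1.16). Without CIX 21 of 55 were called between the lines, 12 higher and 9 lower in 4T1, and the ends were the peroxisomal oxidase Acox2 (4.73) and Nrip1 (2.05) above and Acad8 (-2.12) and Ncoa1 (-2.04) below. The shares called were 9.26% with CIX in 4T1, 14.0% for the difference of responses and 38.2% between the lines, beside 9.34%, 7.86% and 40.0% of all genes.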

How the data were processed

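Poly(A)-selected stranded RNA from 16 samples (2 lines, vehicle or CIX, n = 4 biological replicates each) had been sequenced single-end. The authors quantified transcripts with Salmon 0.12, per the submitters' processing notes, and deposited estimated counts per gene (expected counts) that are not normalized, with genes as Ensembl mouse identifiers. The build field of the labels names a human assembly, whereas the study's methods name the mouse genome GRCm38, which was used here with GENCODE vM21 for symbols, positions and lengths. The estimates were rounded to integers, and TPM was rebuilt with the average GENCODE transcript length of the gene, since the lengths used upstream were not at hand.

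Groups and sample numbers came from the labels. After the study's methods, which state a filter on TPM below 1 in more than 3 samples, limma-voom and a threshold of 0.001, genes below a TPM of 1 in at most 3 of the 8 samples of a comparison were kept (for the difference of responses, in at least 1 line). Applying the filter to each comparison and TMM normalization were choices made here. The fit was limma-voom (limma 3.58.1, edgeR 4.0.16, R 4.3.3) on all genes that passed, and Benjamini-Hochberg adjustment over them, with calls below 0.001. Standard errors are the moderated ones of limma. Single members were also tested by exact two-sided permutation of mean log2(CPM + 0.5). Alternatives were edgeR, DESeq2 1.42.0, other scalings, filters and thresholds, sample weights, all 16 samples in a single fit, log2(TPM + 1) values and leaving out each sample, and a block was added after the data were seen. The scripts were tested on simulated counts first. The 95% confidence intervals are those of limma-voom over samples. A floor is 3 counts and covers only the counting error of the group at 0, not that of the other group.

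Replicates of a group were compared gene by gene, and no pair agreed within sampling noise (chi-square per gene of at least 18.1). Sequence words of 31 bases shared between genes were counted over the GENCODE transcripts to show where reads could be split. Counts of genes without an annotation entry made up at most 0.171% of a library. The members, lists and alternatives were chosen with earlier results of these data known. By the rule for named genes, all 4 nuclear receptors and the 15 called members with the largest absolute log2 fold change are given in every sample, the remaining members by ranges or counts, and of the further pathway genes those called that rose or fell furthest. Acot2 in every sample, Ech1, Slc27a4, the further pathway genes called by DESeq2 alone and the neighbors of Decr1 are given outside this rule, after their values were seen.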

Additional observations from a re-analysis of the deposited data

Results flagged for a closer look

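Of 137 groups of 4 samples with a member's value, 15 held a sample far from the other 3 by Dixon's criterion. For continuous values chance gives about 1 in 20, or 6.85. A group with 1 count in a sample and 0 in the other 3 always meets the criterion. The 15 and the 6.85 can therefore not be compared. In 4T1 CIX sample 4, Ppara read 1.70 CPM (42 counts), against 0.043 to 0.0807 CPM in the other 3 samples, and Decr1 and Ehhadh read 0.0405 CPM each (1 count), against 0. In 67NR vehicle sample 13, Acaa2 was low at 31.3 CPM (others 39.3 to 40.9), Eci1 was low at 23.6 CPM (others 34.7 to 35.6), and Pdk4 read 0.0427 CPM (1 count), against 0. In 4T1 vehicle sample 3, Fabp4 was high at 2.77 CPM (others 1.01 to 1.16) and Fabp5 was high at 135 CPM (others 83.7 to 87.7). In 67NR CIX sample 2, Ucp2 was high at 317 CPM (others 256 to 259) and Pdk4 read 0.0387 CPM (1 count), against 0. Acadl was high at 98.6 CPM in 67NR vehicle sample 5 (others 89.1 to 90.3), and Hadh in 4T1 CIX sample 12 read 91.5 CPM, below the 101 to 102 CPM of the rest of its group. Decr1 read 0.0412 CPM in 4T1 vehicle sample 15 (1 count), against 0, and 0.0 CPM in 67NR vehicle sample 1, against 0.0398 to 0.0446 CPM. Ehhadh read 0.199 CPM (5 counts) in 67NR vehicle sample 9, against 0.0794 to 0.0893 CPM. Flags of Decr1, Ehhadh and Pdk4 rest on 5 counts or fewer.

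The response to CIX differed between 4T1 and 67NR by the interaction term for 6 members, on the log2 scale by 1.69 for Acadvl, 1.06 for Acadl, 0.91 for Rxra, 0.86 for Etfb, 0.82 for Hadha and 0.77 for Hsd17b4, each higher in 4T1.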

How the results depend on the processing

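The count of members called with CIX in 4T1 (5) was 9 by DESeq2, 10 with all 16 samples in a single fit, 3 on log2(TPM + 1) values and 14 at a threshold of 0.05, and 1 to 5 with a sample left out. In 67NR (0) it was 2 by DESeq2, 1 with sample weights and 7 at 0.05. The difference of responses (6) gave 14 at 0.05 (29.4% of all genes) and 3 to 6 with a sample left out. The other settings stayed within 1.5 times these counts, and between the lines (15) all did, with 12 to 18 called at 0.001 and 21 at 0.05. No member past 0.05 changed direction. The cause of these changes was not tested. Over all genes, DESeq2, sample weights and the joint fit called 3096, 2523 and 2679 in 4T1 (main 1089) and 1040, 247 and 151 in 67NR (main 45), log2(TPM + 1) values called 27 in 67NR, and DESeq2 and weights called 1980 and 1916 for the difference of responses (main 991). With a sample left out, all-gene counts ran from 269 to 975 in 4T1 from 0 to 75 in 67NR and from 652 to 1046 for the difference of responses. No sample number in the labels is shared by 2 groups, but each set of 4 consecutive numbers holds a sample of every group. Within such sets the deviations from the group means correlated across genes by 0.05 to 0.41 in 4T1, -0.05 to 0.10 in 67NR and -0.27 to 0.26 between the vehicle groups. Between different sets the correlations ran from -0.27 to 0.21 in 4T1, -0.09 to 0.10 in 67NR and -0.32 to 0.44 between the vehicle groups. The labels do not name the sets as pairs, and they were not taken as such. Whether the 4T1 samples of a set share a source of variation was not tested. With the sets as a replicate block, 5 members were called in 4T1, 0 in 67NR, 5 for the difference of responses (without Hsd17b4) and 12 between the lines (without Acsl1, Eci2 and Acads), and 1142, 0, 1092 and 3008 of all genes. Members at 3 counts or fewer in both groups of a comparison could not be compared at this depth.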

Other observations

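Pdk4, Angptl4, Cd36 and Fabp4, which fat cells, muscle or heart are known to express, read at most 3.52 CPM in any of the 16 samples, whereas Plin2, also a known PPAR target, read 109 CPM or more in all of them. The sum of Fabp5 and its related sequence Gm6166 was 162 ± 43.9 CPM in 4T1 vehicle, 171 ± 27.2 CPM in 4T1 CIX, 87.6 ± 8.88 CPM in 67NR vehicle and 117 ± 14.8 CPM in 67NR CIX (SD, n = 4).

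The RNA of mitochondrially encoded genes took 0.377% of counts in 67NR CIX sample 10 and 1.14 to 1.43% in the other 67NR CIX samples. The 4T1 samples ran from 0.435 to 0.926%. Without 67NR CIX sample 10 the members called in the difference of responses were Acadl, Acadvl and Hadha. The same 3 were left without 67NR samples 1, 5 or 14 or without 4T1 samples 7, 8 or 15.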
